A study of Mus musculus with 12 samples.

Results

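The 10 genes described here are Trem2, Tyrobp, Apoe, Lpl, Cst7, Clec7a, Axl, Spp1, Itgax and Cd9, genes of the disease-associated microglia programme. They were taken by symbol from the count tables of 2 sorted brain cell types, and all 10 were present among the 40853 symbols listed. RNA was sequenced from microglia and astrocytes sorted by flow cytometry from enzymatically dissociated whole brains of mice aged 8 to 9 weeks. Every mouse, of either genotype, had received 1 mg/kg of lipopolysaccharide (LPS, part of the outer wall of Gram-negative bacteria and a strong inflammatory stimulus) into the peritoneum 20 h before dissection. The labels give 6 animals, 3 WT and 3 KPNA4 KO, and each animal gave 1 microglia and 1 astrocyte library, which makes 4 groups of 3 libraries. The sources used here give neither the deleted part of Kpna4 nor the strain or sex of the mice, and untreated mice were not analysed here.

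TREM2 is a lipid-sensing receptor of microglia that has no signalling tail of its own and signals through the adaptor TYROBP (DAP12) to the kinase SYK. APOE is the main apolipoprotein of the brain, made mostly by astrocytes, and is one of the lipid-carrying ligands of TREM2. In mouse models of Alzheimer's disease, microglia near plaques first raise Tyrobp and Apoe and then, with TREM2 present, Lpl, Cst7, Clec7a, Axl, Spp1, Itgax and Cd9, while genes of the resting state fall.

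Promoter sequences are shown for 4 microglia-enriched members, because their letters let the reader see where motifs of myeloid transcription factors lie, and for Axl, the astrocyte-enriched member without any motif searched. They come from RefSeq on GRCm38.p6, and 8 of the 10 members, all except Tyrobp and Lpl, were matched by symbol. The stretches below run 5′ to 3′ on the gene's own strand and lie within the 250 bases before the annotated start. Capitals mark GGAAGT, the core bound by the myeloid factor PU.1 (or its reverse complement), except in Trem2. There they mark TGANTCA, a search form looser than the AP-1 site, in which N is any base, so a match need not be an AP-1 site.
Trem2 (chr17:48346281-48346400, plus strand): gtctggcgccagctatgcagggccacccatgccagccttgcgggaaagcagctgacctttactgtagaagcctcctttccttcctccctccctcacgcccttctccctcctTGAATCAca
Cst7 (chr2:150570295-150570414, plus strand): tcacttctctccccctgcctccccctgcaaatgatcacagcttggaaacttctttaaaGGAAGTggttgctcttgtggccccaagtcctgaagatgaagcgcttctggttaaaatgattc
Itgax (chr7:128129360-128129549, plus strand): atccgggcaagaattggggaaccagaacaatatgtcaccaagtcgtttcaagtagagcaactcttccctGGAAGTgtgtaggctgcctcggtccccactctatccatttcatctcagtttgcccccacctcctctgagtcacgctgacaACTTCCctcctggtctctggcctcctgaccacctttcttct
Spp1 (chr5:104434951-104435110, plus strand): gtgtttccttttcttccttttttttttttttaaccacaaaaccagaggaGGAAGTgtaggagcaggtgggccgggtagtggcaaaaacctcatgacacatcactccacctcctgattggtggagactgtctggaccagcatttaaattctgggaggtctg
Axl (chr7:25788734-25788853, minus strand): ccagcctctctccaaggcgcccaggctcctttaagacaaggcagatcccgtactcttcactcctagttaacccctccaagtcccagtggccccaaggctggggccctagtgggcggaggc

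The motifs were searched on both strands of the 250 bases, and they were chosen with the sequences and earlier results in view. GGAAGT was found in 3 of the 8 matched members (Cst7, Spp1 and Itgax), and 22.2% of 27025 genes have it in that window. It lies 62 to 57 bases before the start of Cst7, 111 to 106 bases before that of Spp1, and in Itgax at 121 to 116 bases and, on the other strand, at 41 to 36 bases. Only Spp1 holds the longer form GAGGAAGT, which overlaps the core and occurs in 2.79% of genes. TGANTCA was found in Trem2, 9 to 3 bases before the start, and in Itgax, at 56 to 50 bases, against 7.82% of all genes. The match reads TGAATCA in Trem2 and TGAGTCA in Itgax. The core of interferon response elements (GAAA, any pair of bases, GAAA) was found in Spp1 alone (3.46% of genes), and TCACGTG, a site of the lysosomal factors TFEB and TFE3, in none of the 8 (3.58% of genes). TATAAA, the letters of the TATA box, was found in Apoe and Spp1 (14.3% of genes). In Apoe it lay 100 to 95 bases and, on the other strand, 96 to 91 bases before the start, and in Spp1 211 to 206 bases before it. These are matches of letters only.

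Totals ran from 10.3 M to 14.5 M counts in the microglia libraries and from 10.7 M to 15.6 M in the astrocyte libraries. Kpna4 itself was at 67.9, 96.4 and 89.0 CPM (counts scaled to a common library total, per M) in WT microglia and at 78.6, 68.5 and 59.8 CPM in those labelled KO. In astrocytes it was at 40.1, 51.1 and 57.6 CPM in WT and 69.0, 43.8 and 80.2 CPM in the libraries labelled KO, so the groups overlapped in both cell types. Counts over the whole gene cannot check a deletion of unknown extent, and the genotype is therefore given as labelled throughout. The 10 microglia markers summed to between 15200 and 19800 CPM in microglia and between 216 and 631 CPM in astrocytes. The 10 astrocyte markers summed to between 16900 and 22400 CPM in astrocytes and between 336 and 746 CPM in microglia, so both sorted types carried the markers of their label. In sorted bulk RNA, fewer cells of a type and less RNA per cell cannot be told apart.

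Microglia and astrocytes differed in 9 of the 10 genes. 7 were higher in microglia (Trem2, Tyrobp, Lpl, Cst7, Clec7a, Itgax and Spp1) and 2 were lower (Apoe and Axl) at an adjusted p under 0.05, the threshold used for a call. Of the 17294 genes tested across all 12 libraries, 28.2% were called higher and 36.4% lower in microglia, 64.6% in all. The same 9 genes had microglia libraries that did not overlap the astrocyte libraries in CPM, which holds for 46.5% of all genes tested. The members' median log2 fold change of microglia over astrocytes was 4.76, and that of all genes was -0.19.

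Trem2 and its adaptor Tyrobp were microglia genes in these libraries, at or near 0 in astrocytes. Trem2 was at 165, 120.0 and 163 CPM in WT microglia and at 112, 176 and 198 CPM in microglia labelled KO. In astrocytes it was at 2.59, 0 and 3.83 CPM in WT and at 0.935, 1.86 and 7.96 CPM in those labelled KO, and the 0 allows up to 0.244 CPM at 3 counts. Every microglia library was thus far above every astrocyte library, by 5.53 on the log2 scale (SE 0.58, adjusted p 8.81e-07). Tyrobp, whose product carries the signal of TREM2 and of several other myeloid receptors, was at 109, 112 and 156 CPM in WT microglia and at 159.6, 146 and 170.2 CPM in microglia labelled KO. Its astrocyte values were 8.06, 2.76 and 2.60 CPM in WT and 2.81, 3.91 and 2.63 CPM in those labelled KO. The difference was 4.94 on the log2 scale (SE 0.31, adjusted p 3.63e-09), and the single high astrocyte value belonged to WT animal 1.

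Apoe, the lipid carrier, ran the other way. Microglia held 1623, 1727 and 1357 CPM in WT and 1954, 1225 and 1009 CPM in the libraries labelled KO. Astrocytes held 15078, 14618 and 7723 CPM in WT and 14878, 18910 and 7947 CPM in those labelled KO. The lowest astrocyte library, at 7723 CPM, was still above the highest microglia library, and the fitted level was 11.2-fold higher in astrocytes (log2 -3.48 for microglia over astrocytes, SE 0.31, adjusted p 1.37e-07). In both genotypes, replicate 3 was the lowest of the 3 astrocyte libraries. Lpl encodes lipoprotein lipase, which frees fatty acids from lipoproteins. It was at 63.3, 43.7 and 44.5 CPM in WT microglia, 42.6, 37.7 and 45.8 CPM in microglia labelled KO, 1.65, 0.325 and 1.78 CPM in WT astrocytes and 0, 2.05 and 3.79 CPM in astrocytes labelled KO. Its log2 fold change of microglia over astrocytes was 4.58 (SE 0.57, adjusted p 5.92e-06).

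Axl, a TAM-family receptor tyrosine kinase that binds GAS6 bridged to phosphatidylserine on dying cells, was an astrocyte-enriched gene in these libraries. It was at 67.3, 42.6 and 82.9 CPM in WT microglia and at 46.6, 36.5 and 41.6 CPM in those labelled KO. In astrocytes the values were 154, 99.1 and 154 CPM in WT and 133, 134 and 159.5 CPM in those labelled KO. The astrocyte level was 3.26-fold higher (log2 -1.71, SE 0.19, adjusted p 1.57e-06), with no overlap. Cd9, a tetraspanin of the cell surface, was the only member without a call: 71.7, 81.4 and 103 CPM in WT microglia, 120.4, 113 and 114 CPM in microglia labelled KO, 85.6, 83.2 and 92.2 CPM in WT astrocytes and 107, 85.2 and 109.5 CPM in astrocytes labelled KO. Its log2 fold change was -0.19 (95% interval -0.46 to 0.08, adjusted p 0.197), and its sign depends on the scaling: with library totals alone it was 0.09. That scaling moved the median of all genes by 0.28 on the log2 scale and turned the sign of no other member.

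**Figure D1:**
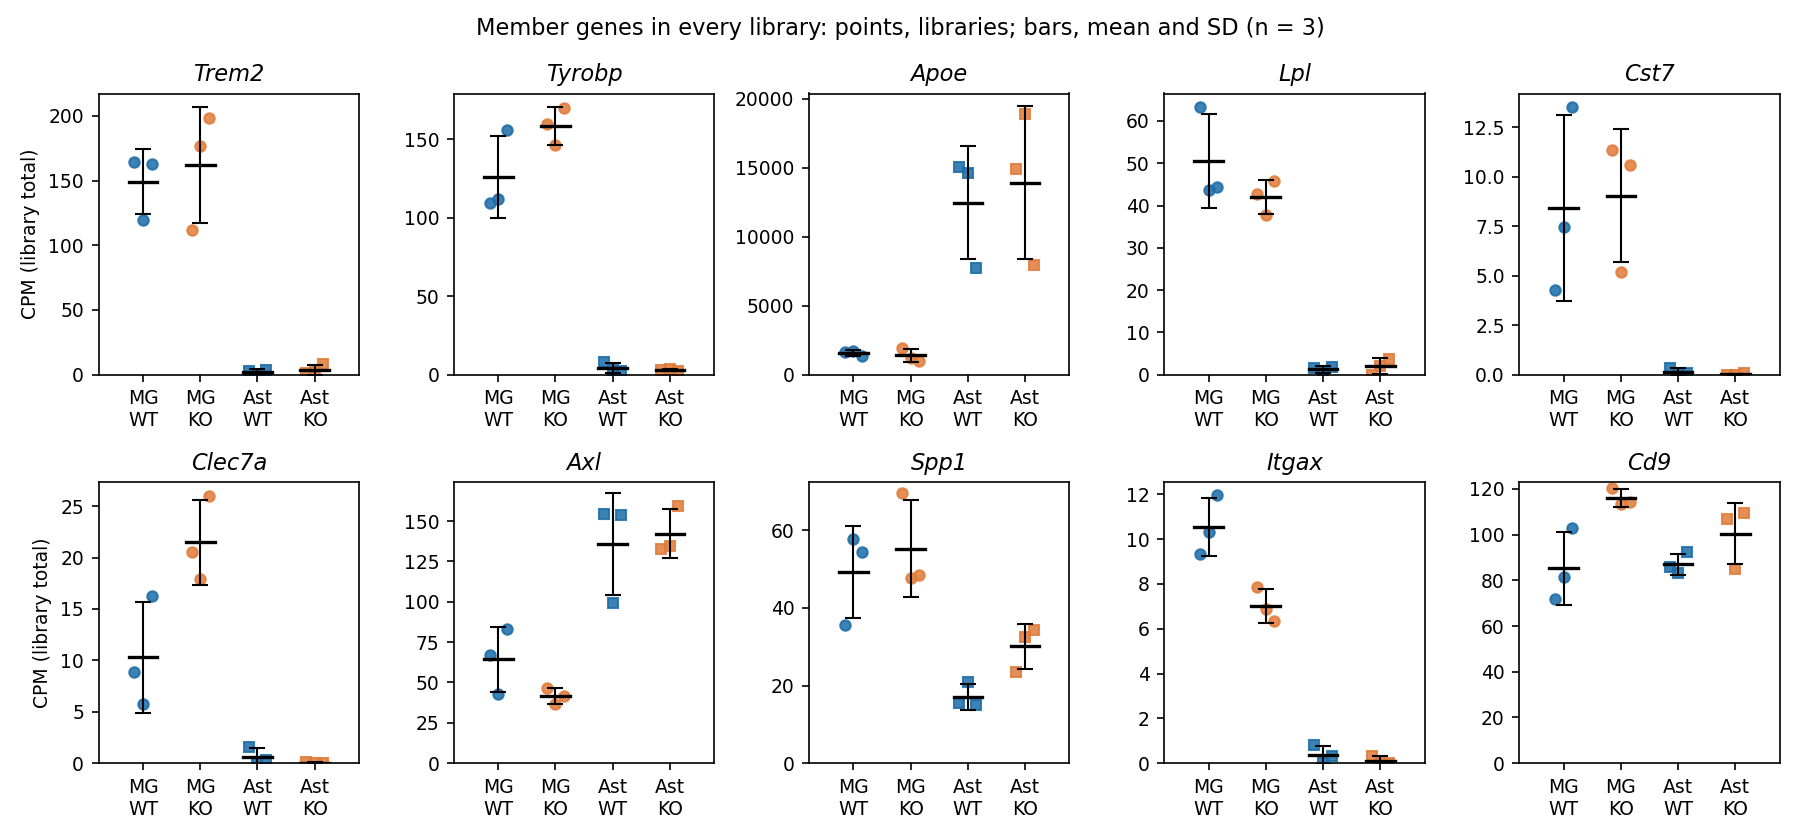
CPM of the 10 genes in each of the 12 libraries, on linear axes that start at 0; circles are microglia (MG), squares astrocytes (Ast), blue WT, orange labelled KO, and bars give mean and SD (n = 3). Apoe and Axl stand higher in the astrocyte columns, Cd9 overlaps between the cell types, and Cst7, Clec7a and Itgax are near 0 in every astrocyte library.

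Clec7a (dectin-1, a pattern receptor for fungal glucans), Itgax (the integrin chain CD11c) and Cst7 (cystatin F, an inhibitor of lysosomal proteases) were the scarcest members. Clec7a was at 8.90, 5.74 and 16.3 CPM in WT microglia and at 20.5, 17.9 and 26.0 CPM in those labelled KO. Its astrocyte values were 1.58, 0 and 0.274 CPM in WT and 0.0850, 0 and 0 CPM in those labelled KO. Over all libraries of a cell type that is 1200 against 27 counts, a CPM ratio of 47.2 (95% counting interval 32.3 to 71.9). Itgax was at 9.35, 10.3 and 11.9 CPM in WT microglia, 7.85, 6.86 and 6.34 CPM in microglia labelled KO, 0.791, 0 and 0.342 CPM in WT astrocytes and 0.340, 0 and 0 CPM in astrocytes labelled KO. Its ratio was 34.5 (22.2 to 56.9) from 651 against 20 counts. Cst7 was at 4.30, 7.45 and 13.5 CPM in WT microglia, 11.3, 5.19 and 10.6 CPM in microglia labelled KO, 0.360, 0 and 0.0684 CPM in WT astrocytes and 0, 0 and 0.0642 CPM in astrocytes labelled KO. Its ratio was 98.7 (47.6 to 246) from 651 against 7 counts. All 3 genes were called higher in microglia (largest adjusted p 7.63e-05, Itgax). Counting intervals and the limits of a 0 cover counting error only, since amplified cDNA copies are not independent molecules.

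Spp1 encodes osteopontin, a secreted ligand of CD44 and of several integrins. It was at 35.7, 57.8 and 54.3 CPM in WT microglia, 69.7, 47.7 and 48.6 CPM in microglia labelled KO, 15.5, 20.8 and 14.9 CPM in WT astrocytes and 23.5, 32.6 and 34.3 CPM in astrocytes labelled KO. Microglia were 1.86-fold higher (log2 0.89, SE 0.21, adjusted p 0.00160), the smallest of the called differences among the members. The lowest microglia library (35.7 CPM) was just above the highest astrocyte library (34.3 CPM).

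**Figure D2:**
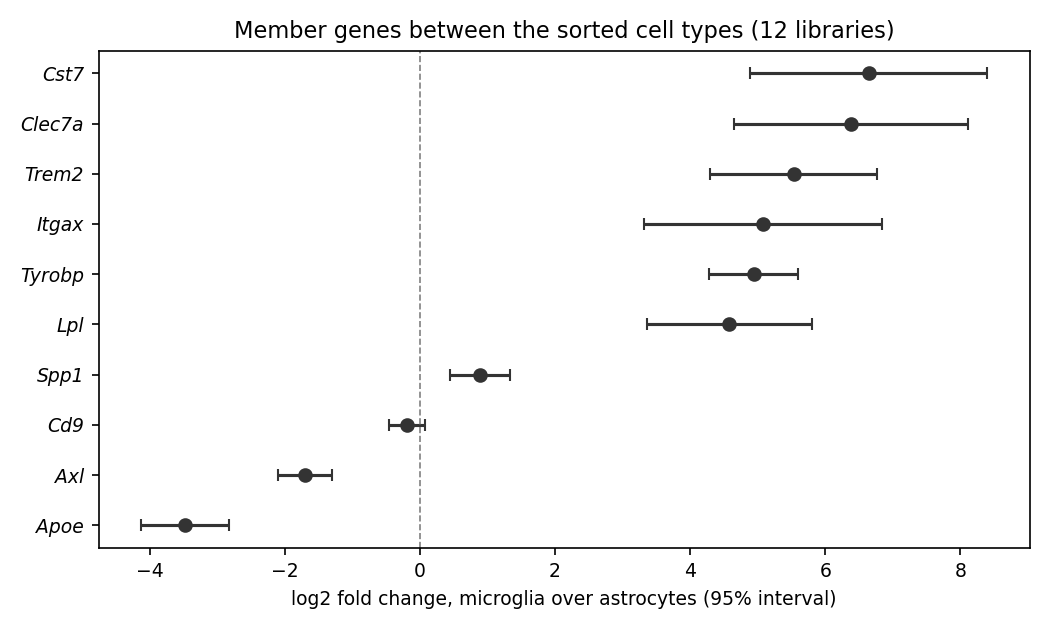
Log2 fold change of microglia over astrocytes for each gene, with its 95% interval from the fit of 12 libraries; the dashed line marks no difference. 6 genes lie between 4.58 and 6.64, Spp1 lies at 0.89, the interval of Cd9 spans 0, and Axl and Apoe lie below 0.

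The astrocyte level of each member was set beside that of the microglia markers in the same animal. The summed markers in the astrocyte library were 1.42% to 4.06% of their level in the microglia library of that animal (median 2.30%, 6 animals). Trem2 (0% to 4.02%, median 1.31%), Tyrobp (1.55% to 7.39%, median 2.11%) and Itgax (0% to 8.47%, median 1.43%) had medians under that of the markers. Cst7 and Clec7a had medians of 0.253% and 0.207%, and Lpl one of 3.30% (0% to 8.27%). WT animal 1 had the highest share of the markers, 4.06%, and also the highest of Tyrobp (7.39%), Cst7 (8.37%), Clec7a (17.8%) and Itgax (8.47%). Trem2 (4.02%) and Lpl (8.27%) had theirs in KO animal 3, where the markers were at 1.95%. Spp1 at 27.4% to 70.7%, Cd9 at 75.2% to 119%, Axl at 186% to 384% and Apoe at 569% to 1540% all lay above the range of the markers in every animal. In the other direction, the 10 astrocyte markers reached 1.68% to 3.54% of their astrocyte level in the microglia libraries. Apoe in microglia was at 6.48% to 17.6% and Axl at 26.1% to 53.8% of the astrocyte level, both above the markers' range in every animal.

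**Figure D3:**
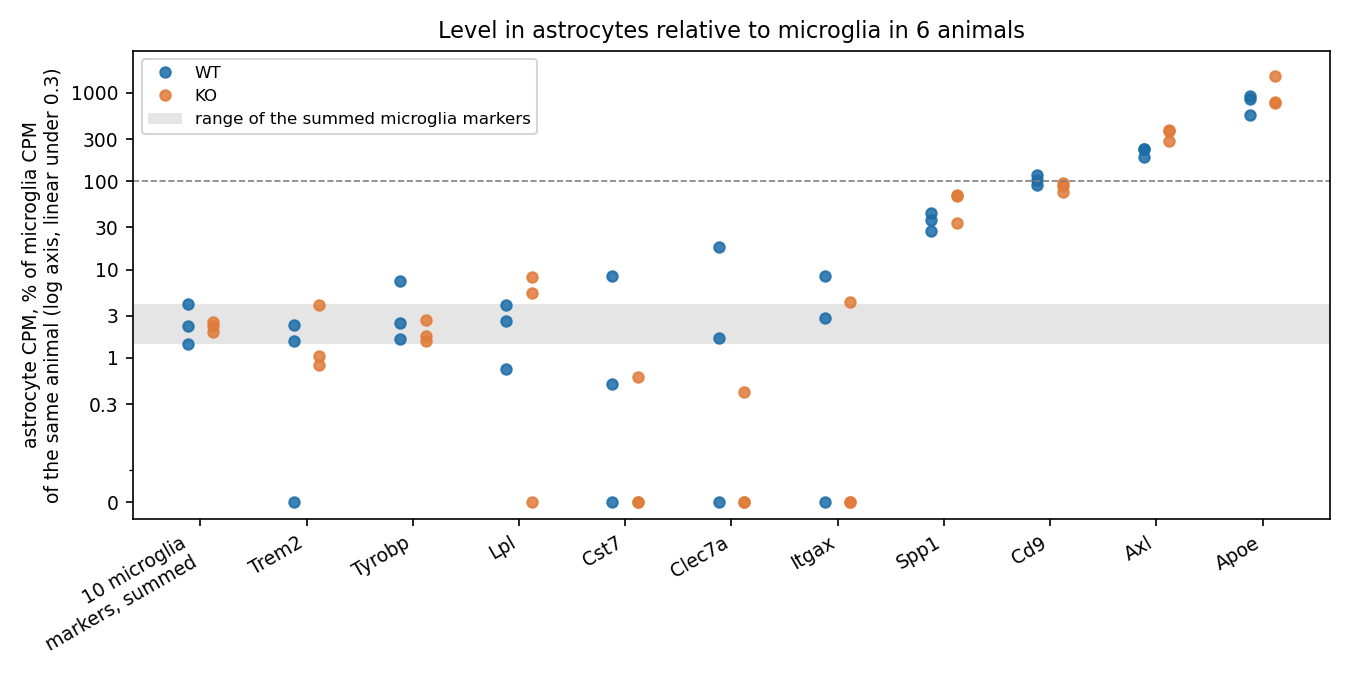
Astrocyte CPM as a percent of microglia CPM in the same animal (log axis, linear under 0.3) for the summed microglia markers and each gene; blue WT, orange labelled KO, and the grey band is the range of the markers, 1.42% to 4.06%. Spp1, Cd9, Axl and Apoe lie above the band in all 6 animals, and the other genes lie in or around it.

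Per kilobase of exon, which allows genes to be compared, Apoe was the most abundant member in both cell types. In microglia the mean level was 807 CPM per kb (SD 189.8, n = 6) for Apoe, 252 (SD 45.5) for Tyrobp and 136 (SD 29.2) for Trem2. The adaptor was thus above its receptor, and the ranges of these 3 genes were separate. Cd9 followed at 82.0 (SD 16.1) CPM per kb, overlapping Trem2, and Spp1 at 31.7 (SD 6.89), separate from both neighbours. Axl (12.4), Lpl (11.2), Cst7 (8.86), Clec7a (6.95) and Itgax (2.03) CPM per kb came last, and each of these overlapped its neighbour. In astrocytes Apoe at 7178 (SD 2415), Cd9 at 76.3 (SD 9.43), Axl at 32.5 (SD 5.26) and Spp1 at 14.3 (SD 5.04) CPM per kb were separate from one another, apart from Spp1, which overlapped Tyrobp below it. Tyrobp (6.73), Trem2 (2.50), Lpl (0.389), Clec7a (0.142), Cst7 (0.0832) and Itgax (0.0567) CPM per kb overlapped in turn.

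Genes that act with the members were read from lists chosen by function, with earlier results of these data known. Of 17 genes of TREM2 signalling, 16 were called higher in microglia and 0 lower. Syk, the kinase recruited by TYROBP, was 4.40 higher on the log2 scale, Plcg2, the phospholipase that acts after it, 4.88, and Inpp5d, which encodes the opposing phosphatase SHIP1, 5.39. Hcst (DAP10), the other adaptor of TREM2, was at 0.359 to 4.27 CPM in microglia and had 0 counts in all 6 astrocyte libraries. Of 16 genes of the resting microglia state, 16 were called higher in microglia, and of 16 transcription factors 15 were higher and 1 lower, with Spi1, which encodes PU.1, at 5.38.

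Lists around Apoe, Axl and the late programme held genes of both directions, as did all genes tested (28.2% higher and 36.4% lower in microglia). Of 21 other genes of APOE and lipid handling, 7 were called higher and 10 lower in microglia. The cholesterol exporters Abca1 (0.97) and Abcg1 (3.16) were higher in microglia, and Clu, another apolipoprotein (-5.12), and the APOE receptor Lrp8 (-3.87) were lower on the log2 scale. Lrp1, the large endocytic APOE receptor, had a log2 fold change of 0.16 (SE 0.17, adjusted p 0.425). Around Axl, the related receptor Mertk (1.14) was higher and Tyro3 (-2.59) lower in microglia, and their ligand Gas6 was at 0.11 (SE 0.16, adjusted p 0.543). Among osteopontin receptors, Cd44 (-1.08) and Itgav (-0.51) were lower in microglia and 6 of the other 7 were higher. Of 18 further late genes, 10 were higher and 6 lower in microglia. The 6 include Gpnmb, at 0 to 0.758 CPM in microglia and 3.58 to 9.28 CPM in astrocytes, Fabp5 (log2 -5.36) and Igf1 (log2 -1.84). Gpihbp1, whose product anchors LPL to capillaries, had 0 counts in all 12 libraries.

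In microglia, none of the 10 members was called between the libraries labelled KO and WT. Of the 14191 genes tested, 0.0% were called by edgeR, while 1053 genes, or 7.42%, had an unadjusted p under 0.05, and DESeq2 called 41. An unadjusted p under 0.05 was found for 3 of the 10 members. Clec7a and Cd9 were higher in the libraries labelled KO (2 of 10, against 2.35% of all genes in that direction) and Axl was lower (1 of 10, against 5.07%). In CPM, Clec7a, Cd9 and Itgax had groups that did not overlap, which 13.1% of all genes have. The members' median log2 fold change was 0.09, and that of all genes -0.00.

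Clec7a had the widest difference. All 3 microglia libraries labelled KO, at 17.9 to 26.0 CPM, were above the WT libraries, at 5.74 to 16.3 CPM. The log2 fold change was 1.04 (SE 0.37, 95% interval 0.25 to 1.83, unadjusted p 0.0136, adjusted p 0.587). Cd9 was at 113 to 120.4 CPM in the libraries labelled KO and 71.7 to 103 CPM in WT, a log2 fold change of 0.42 (SE 0.19, interval 0.01 to 0.84, unadjusted p 0.0449, adjusted p 0.665). Axl was at 36.5 to 46.6 CPM in the libraries labelled KO against 42.6 to 82.9 CPM in WT, so that WT library 2 lay inside the other group. Its log2 fold change was -0.65 (SE 0.25, interval -1.18 to -0.12, unadjusted p 0.0200, adjusted p 0.616). Itgax was at 6.34 to 7.85 CPM against 9.35 to 11.9 CPM, a log2 fold change of -0.61 whose interval, -1.40 to 0.19, includes 0 (unadjusted p 0.123). Without the third microglia library labelled KO, none of the 10 members had an unadjusted p under 0.05 (Clec7a 0.0509, Axl 0.0519, Cd9 0.0705), and without any other single library 1 to 3 did.

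The other 6 members gave no difference beyond the spread between libraries. The log2 fold change was 0.10 for Trem2 (95% interval -0.40 to 0.59) and 0.32 for Tyrobp (-0.10 to 0.73). It was -0.19 for Apoe (-0.71 to 0.33) and -0.29 for Lpl (-0.78 to 0.19). For Spp1 it was 0.15 (-0.37 to 0.67) and for Cst7 0.09 (-0.93 to 1.11). These intervals still allow changes of up to 1.51-fold in Trem2 and 2.15-fold in Cst7.

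Markers of other cell types were read in the same microglia libraries. Astrocyte markers summed to 548, 336 and 746 CPM in WT microglia and to 367, 399 and 369.8 CPM in microglia labelled KO (exact 2-sided permutation p 0.4), and the fitted values of 10 of 10 were lower in the libraries labelled KO. WT replicate 2 lay below every library labelled KO in this sum, so the groups overlapped. By fitted value 50.1% of all genes were lower and 49.9% higher. Choroid plexus and ependymal markers summed to 1446, 1935 and 4119 CPM against 568, 920.4 and 1638 CPM (exact permutation p 0.2), and 6 of 7 tested were lower. Neuron markers summed to 37.1, 28.1 and 41.6 CPM in WT and to 19.0, 14.7 and 22.9 CPM in the libraries labelled KO. Those groups did not overlap (exact permutation p 0.1, the smallest that 3 against 3 libraries can give), and 6 of 8 had fitted values below 0. Endothelial and mural markers summed to 80.7, 27.7 and 96.1 CPM against 30.9, 25.6 and 40.4 CPM (exact permutation p 0.3), and 9 of 9 had fitted values below 0, the median being -1.11 on the log2 scale. Border macrophage markers had a mean sum of 306 CPM in WT and 329 CPM in the libraries labelled KO (exact permutation p 0.7), and 2 of 8 were lower. Oligodendrocyte markers had mean sums of 886 and 508 CPM (exact permutation p 0.7), and 6 of 9 were lower. For monocyte and neutrophil markers the mean sums were 15.6 and 10.2 CPM (exact permutation p 0.8), and 4 of 5 tested were lower. The part of all these markers in the members' differences was not tested beyond the covariate fit that follows. With the summed marker level of other cell types as a covariate, the log2 fold change of Axl was -0.40 (unadjusted p 0.201), that of Clec7a 1.73 (p 0.000924) and that of Cd9 0.58 (p 0.0242). In that fit Tyrobp was at 0.56 (p 0.0200) and Apoe at -0.60 (p 0.0342), and no member was called. Small p values were also more frequent there over all genes. An unadjusted p under 0.05 was found for 11.9% of them, 6.59% being lower in the libraries labelled KO, against 7.42% and 5.07% in the main fit.

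The fold changes also moved with the length of genes. The median log2 fold change of the libraries labelled KO over WT was 0.13 for genes with up to 1.5 kb of exon and -0.12 for those over 6 kb in microglia, and 0.16 and -0.07 in astrocytes. With an offset for exonic length, Cd9 (1.23 kb) gave 0.30 (unadjusted p 0.131), Clec7a (2.29 kb) 0.99 (p 0.0157) and Axl (4.28 kb) -0.61 (p 0.0243). The part of length in the remaining differences was not tested.

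**Figure D4:**
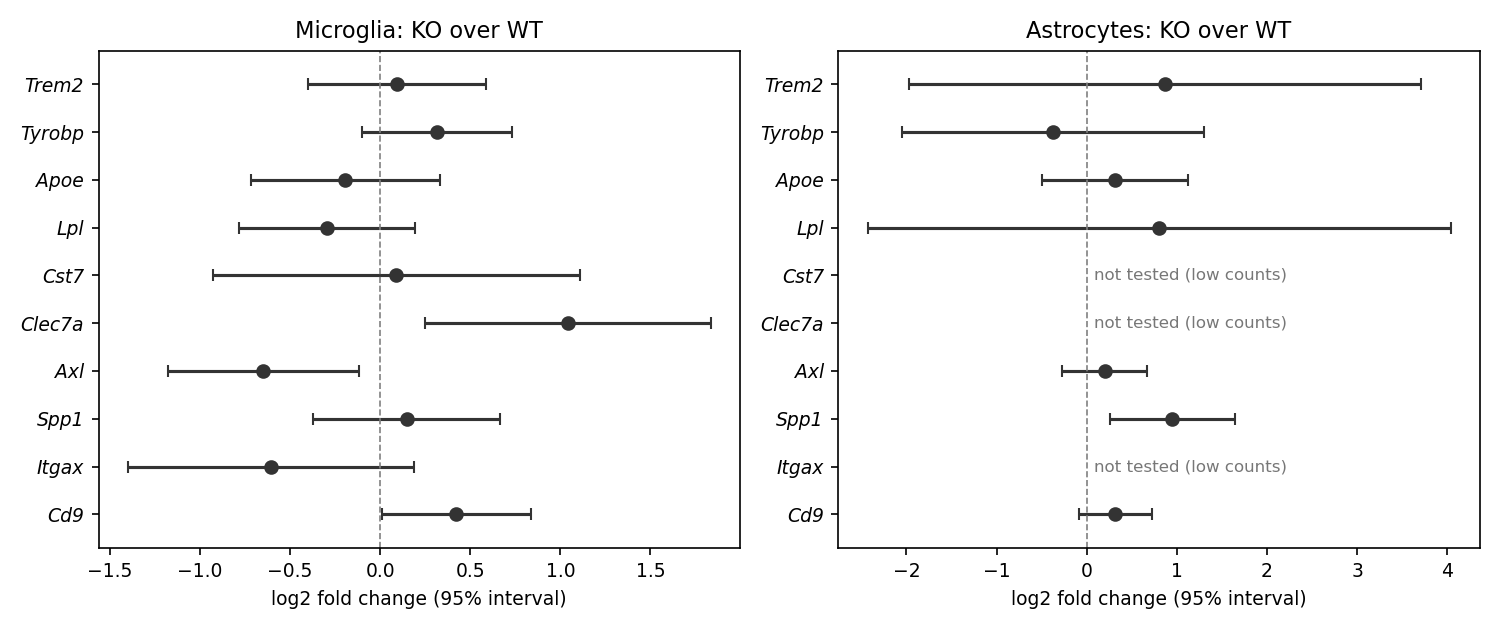
Log2 fold change of the libraries labelled KO over WT with its 95% interval, microglia on the left and astrocytes on the right (the axes differ in range). In microglia the intervals of Clec7a, Cd9 and Axl leave out 0, in astrocytes that of Spp1 does, and no adjusted p was under 0.05.

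In astrocytes, 7 of the 10 members had enough counts to be tested for genotype, and none was called. Cst7, Clec7a and Itgax fell under the filter on low counts. Of 15755 genes tested, 0.0% were called by edgeR, 373 genes (2.37%) had an unadjusted p under 0.05, and DESeq2 called 4. Spp1 was the 1 tested member with an unadjusted p under 0.05 and with groups that did not overlap (8.13% of all genes do not overlap). It was at 23.5 to 34.3 CPM in the libraries labelled KO and 14.9 to 20.8 CPM in WT, a log2 fold change of 0.95 (SE 0.32, interval 0.26 to 1.64, unadjusted p 0.0115, adjusted p 0.999). Leaving out each animal in turn gave log2 values of 0.75 to 1.17 for Spp1, and the length offset 0.86 (unadjusted p 0.0137). The astrocyte libraries also held markers of other cell types. Oligodendrocyte markers summed to 898 to 4060 CPM in WT and 916 to 1900 CPM in the libraries labelled KO (exact permutation p 0.7). For choroid plexus and ependymal markers the sums were 1180 to 1950 and 1020 to 1420 CPM (exact permutation p 0.2). Their part in the astrocyte differences was not tested beyond the covariate fit.

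Apoe in astrocytes had a log2 fold change of 0.31 (95% interval -0.50 to 1.12), and without replicate 2 labelled KO it was -0.16. Axl was at 0.20 (-0.27 to 0.67) and Cd9 at 0.32 (-0.09 to 0.72). Trem2 (0.87, interval -1.97 to 3.71), Tyrobp (-0.37, SE 0.77) and Lpl (0.80, interval -2.43 to 4.04) rest on a few CPM. The counts of these 3 genes also spread widely between libraries, as Trem2 with 11, 20 and 124 counts in astrocytes labelled KO.

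The genotype effects were compared between the cell types by an interaction term, the astrocyte effect minus the microglia effect. No member was called (0.0% of 17294 genes by edgeR, 6.37% at an unadjusted p under 0.05, 54 genes by DESeq2). Axl gave 0.96 (SE 0.37, 95% interval 0.17 to 1.75, unadjusted p 0.0201, adjusted p 0.709), from -0.76 in microglia and 0.20 in astrocytes in this fit of all 12 libraries. Spp1 gave 0.90 (SE 0.41, interval 0.02 to 1.78, unadjusted p 0.0458, adjusted p 0.773), from 0.06 and 0.96 in the same fit. The median of all genes for this term was 0.16, and relative to it both values are smaller. Clec7a also had an unadjusted p under 0.05 (0.00752), but 4 of its 6 astrocyte libraries have 3 counts or fewer and no fold is given.

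Related genes in microglia were read by list, and no gene of any list was called for genotype. Counts at an unadjusted p under 0.05 are to be read against 2.35% of all genes higher and 5.07% lower in the libraries labelled KO, 7.42% in all. Of 17 further late disease-associated genes, 14 had fitted values above 0 (49.9% of all genes), their median log2 fold change was 0.26, and 0 had an unadjusted p under 0.05. That median was 0.08, with 10 of 17 above 0, without replicate 1 labelled KO, 0.12 without WT replicate 1, 0.15 without WT replicate 3 and 0.07 (10 of 17) with the marker covariate. Ctsl, a lysosomal protease (0.35, SE 0.18), and Cd68, a lysosomal membrane protein (0.32, SE 0.18), had the smallest p among them. Of 9 early genes, which include Tyrobp and Apoe, 0 had an unadjusted p under 0.05, and the median was 0.10. Of 16 genes of the resting state, 1 did: Csf1r, the receptor for CSF1 on which microglia depend, was at 5831, 4468 and 5162 CPM in WT and 3475, 3224 and 4318 CPM in the libraries labelled KO. All WT libraries were higher, with a log2 fold change of -0.52 (SE 0.19, adjusted p 0.600).

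Of the 17 genes of TREM2 signalling, 1 had an unadjusted p under 0.05, no more than the share of all genes. It was Ms4a6d, a membrane gene of the MS4A cluster, at 0.58 (SE 0.27, adjusted p 0.669). Syk was at 304, 282 and 322 CPM in WT and 288, 289 and 293 CPM in microglia labelled KO, and the list's median was 0.09. Ctsc, whose protease is a target of cystatin F, was at 713, 901 and 849 CPM in WT and 1224, 1038 and 1154 CPM in microglia labelled KO. These groups did not overlap, and the log2 fold change was 0.45 (SE 0.18, unadjusted p 0.0272, adjusted p 0.620). On a list of TREM family genes and other receptors, such as Clec5a and Siglec1, 8 genes were tested. At an unadjusted p under 0.05, 3 were higher and 1 lower in the libraries labelled KO. Fitted values were above 0 for 7 of the 8 (median of the list 0.73). Trem1, a receptor that amplifies inflammation through the adaptor that Tyrobp encodes, had 31, 34 and 55 counts in WT and 134, 66 and 81 counts in the libraries labelled KO. Scaled to library totals, its WT libraries reached 4.18 CPM and the lowest labelled KO was at 5.52 CPM, so the groups did not overlap. Its log2 fold change was 1.31 (SE 0.54, unadjusted p 0.0288, adjusted p 0.625), and 0.79 without replicate 1 labelled KO. Trem3 had 1 count in each WT library and 12, 17 and 33 counts in those labelled KO (unadjusted p 0.00672, adjusted p 0.551), too few for a fold. The third that was higher, Clec5a, a receptor of myeloid cells, was named after its values were seen (log2 fold change 0.61, SE 0.25, unadjusted p 0.0298, adjusted p 0.628). The gene that was lower, Siglec1, a sialic acid receptor, was at 111, 123 and 148 CPM in WT and 82.1, 54.4 and 82.7 CPM in the libraries labelled KO (log2 -0.82, SE 0.21, adjusted p 0.491). It passed the threshold only where all genes with at least 1 count were tested (adjusted p 0.0390).

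Of 20 genes of APOE and lipid handling tested in microglia, 7 had an unadjusted p under 0.05 and were lower in the libraries labelled KO, and 0 were higher. The share in that direction over all genes is 5.07%, and the list's median was -0.31. Lrp1 was at 3969, 2799 and 2653 CPM in WT and 2215, 1605 and 2124 CPM in the libraries labelled KO, with no overlap (log2 -0.69, SE 0.22, adjusted p 0.551). Its fold change was -0.43 with the length offset and -0.85 with the marker covariate, and Lrp1 has 16.3 kb of exon. Lrp8 was at 20.7, 10.6 and 36.0 CPM against 6.10, 5.35 and 12.4 CPM (log2 -1.51, SE 0.44, adjusted p 0.542). Clu was at 72.6, 73.3 and 147 CPM against 31.1, 55.8 and 72.1 CPM (log2 -0.90, SE 0.31, adjusted p 0.587). Both passed the threshold where all genes with at least 1 count were tested (adjusted p 0.0123 for Lrp8 and 0.0209 for Clu). Both are astrocyte-enriched genes. With the marker covariate Lrp8 gave -0.68 (unadjusted p 0.124) and Clu -0.21 (p 0.439). That covariate sums the markers of all other cell types and is not a measure of astrocyte RNA alone. In microglia, choroid plexus and ependymal markers had mean sums of 2500 CPM in WT and 1040 CPM in the libraries labelled KO, against 543 and 379 CPM for astrocyte markers. The part of astrocyte RNA in the 2 differences was not tested. Under that covariate 1 gene of the list was lower and 3 were higher at an unadjusted p under 0.05. Over all genes in that fit, 6.59% were lower and 11.9% had such a p in either direction. With each replicate left out in turn, 4 to 6 were lower.

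**Figure D5:**
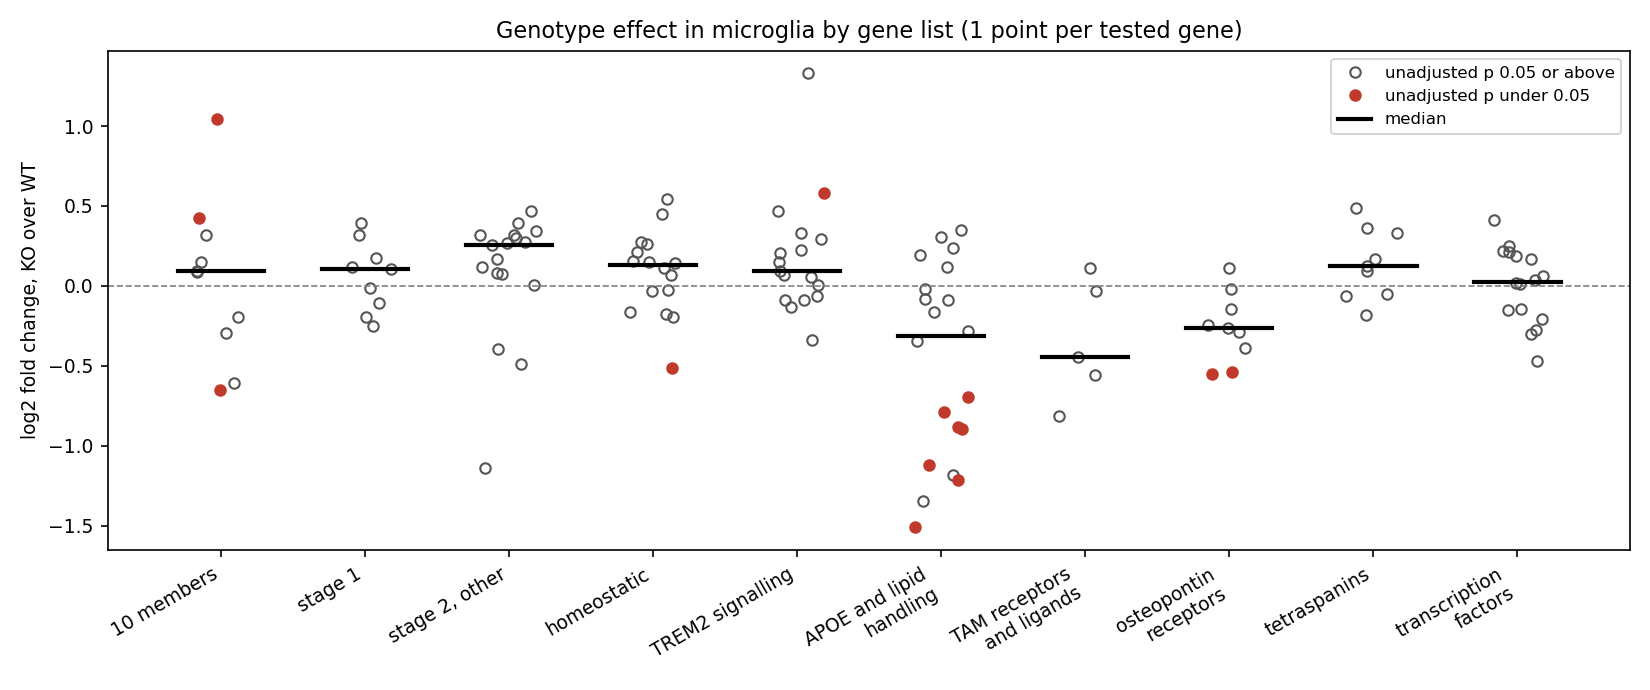
Log2 fold change of the libraries labelled KO over WT in microglia, 1 point per tested gene, by list; red points have an unadjusted p under 0.05 and bars are medians. The APOE and lipid handling list holds 7 red points, all below 0, while the 10 members hold 2 above and 1 below.

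Receptors and ligands of the remaining members were read in the same way. Of 5 TAM receptors and ligands, 0 had an unadjusted p under 0.05 in microglia. Gas6, the ligand of AXL, was at 342, 252 and 214 CPM in WT and 213, 185 and 209 CPM in the libraries labelled KO (log2 -0.44, SE 0.21, adjusted p 0.690; -0.23 without WT replicate 1). Mertk was at 789, 851 and 783 CPM against 779, 842 and 788 CPM, so its groups overlapped. Of 9 osteopontin receptors, 2 were lower at an unadjusted p under 0.05 (5.07% of all genes): Itgb3 (-0.54, SE 0.19, adjusted p 0.587) and Itgb5 (-0.55, SE 0.22, adjusted p 0.625). The count was 0 without replicate 2 labelled KO and 1 without replicate 1 of either genotype, and Itgb5 was at -0.28 without WT replicate 1. Among 9 other tetraspanins and 16 transcription factors, 0 had an unadjusted p under 0.05 in microglia. In astrocytes the lists held 0 called genes, and 2.37% of all genes had an unadjusted p under 0.05. The lists' smallest unadjusted p values belonged to Syk (1.25, SE 0.43, p 0.0127), Pros1, a TAM ligand (0.62, SE 0.21, p 0.0136), and Tfeb (-0.90, SE 0.34, p 0.0233). Syk was low there, at 4.47 to 21.6 CPM against 282 to 322 CPM in microglia. The part of microglia RNA in its astrocyte difference was not tested.

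The genes most like Trem2 and Apoe over the 12 libraries were found by the root mean square difference of centred log2 CPM among 17294 genes. For Trem2 they were Gpr84, a receptor for medium-chain fatty acids (0.47), Tgfb1 (0.61) and Lrrc3 (0.62). For Apoe they were Myo6, an unconventional myosin (0.21), Pnkd (0.30) and Tubb2b (0.37). The 12 libraries hold both cell types, so the measure includes the difference between them.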

How the data were processed

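For each cell type, the authors deposited a table of estimated counts by gene symbol. Per the submitters' processing notes, reads were processed with STAR 2.7.10b and RSEM 1.3.3 on GRCm39; the sources used here do not name the annotation. The values are not normalized, and strand use in the counting is not stated. Per the labels' protocols, RNA came from a column kit, full-length cDNA from a SMART-Seq HT kit and libraries from a Nextera kit, without molecular identifiers. All 12 columns were matched to libraries by name. The expected counts were rounded to whole numbers.

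CPM were computed per library total. Genotype was tested in the 6 libraries of each cell type, and cell types and their interaction with genotype in all 12, with edgeR 4.0.16 (R 4.3.3; TMM factors, filterByExpr with a minimum count of 10, quasi-likelihood test, Benjamini-Hochberg adjustment over all genes tested). Intervals are 95%. Sums of markers were compared by an exact permutation test, whose smallest p with 3 against 3 libraries is 0.1. Alternatives used DESeq2 1.42.0, limma 3.58.1 (voom), other scalings and filters, counts thinned to the smallest library, a marker covariate, blocks and each replicate left out; the offset for exonic length was added after seeing the data. The test was run on simulated counts with the same spread set for all genes and independent libraries. That spread need not match the real data, and no result here rests on it. Exonic lengths came from GENCODE M21 (GRCm38), so no gene coordinates are taken from it, and promoters from RefSeq on GRCm38.p6.

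The members and the gene lists were chosen with earlier results of these data known. All 10 members are named, with 7 partner genes, at most 3 genes of smallest unadjusted p per list and cell type, and the 3 genes most like Trem2 and Apoe; genes named in the comparison of cell types beyond these were chosen for their role. Animal numbers in the labels pair each microglia library with 1 astrocyte library; over genes, the paired deviations from group means correlated at 0.0041 to 0.0962.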

Additional observations from a re-analysis of the deposited data

How the results depend on the processing

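Of 640 alternative values of the members, 612 kept their direction and side of the threshold, 27 changed sign and 1 passed it: the Clec7a interaction with no filter (adjusted p 0.0199), which rests on astrocyte counts near 0. No member was called for genotype in either cell type under any alternative run. The 9 members called between cell types kept their call and direction in all. The count of genes called for genotype in microglia, 0, became 41 with DESeq2, 121 with no filter beyond 1 count, 41 in 1 fit of all 12 libraries, 13 with the marker covariate and 0 to 2 with a replicate left out (2 without KO replicate 2). In astrocytes, 0 became 4 with DESeq2, 17 with no filter and 0 to 1 with a replicate left out (1 without WT replicate 1). For the interaction, 0 became 54, 160 and 0 to 6 (1 without WT animal 2, 6 without KO animal 3). The cause of these shifts was not tested. Nothing in the labels pairs WT with KO animals by number, and same-numbered libraries correlated at 0.05 to 0.19 in microglia and -0.02 to 0.23 in astrocytes; with the replicate block, 30 genes were called in microglia and 0 in astrocytes. The animal replicate block gave 0 calls for the interaction, 10400 in place of 11166 between cell types, and changed no member's call. Signs changed only in values without a call. With each replicate left out, the genotype difference in microglia ranged from -0.0492 to 0.32 for Trem2, from -0.50 to 0.0109 for Apoe, from -0.23 to 0.59 for Cst7 and from -0.0413 to 0.29 for Spp1. In astrocytes it ranged from -0.33 to 1.52 for Trem2, from -0.73 to 0.37 for Tyrobp and from -0.16 to 0.62 for Apoe. The interaction ranged from -0.48 to 1.46 for Trem2, from -1.12 to 0.18 for Tyrobp, from -0.0616 to 0.78 for Apoe, from -4.68 to 0.17 for Itgax and from -0.24 to 0.0474 for Cd9. Cd9 between cell types ranged from -0.16 to 0.0494, and was 0.0892 with library totals. The length offset gave -0.0301 for Trem2 and -0.0461 for Cst7 in microglia, 1 fit of all libraries -0.0021 for Trem2, and voom -0.0282 for Cst7. In astrocytes the covariate gave -0.18 for Apoe and voom -1.18 for Lpl, whose interaction was -0.81 with voom. The Axl difference in microglia ranged from -0.87 to -0.40 over all alternatives and that of Clec7a from 0.76 to 1.73. Cst7, Clec7a and Itgax have 0 counts in 3 astrocyte libraries each, which allows up to 3 counts (0.193 to 0.279 CPM over the astrocyte libraries).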

Other observations

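Fabp5, a fatty acid binding protein counted among the late disease-associated genes, was an astrocyte gene in these libraries, and it was picked out after its values were seen. In astrocytes it was at 282, 255 and 109 CPM in WT and at 279, 438 and 110.1 CPM in the libraries labelled KO, against 5.32 to 8.97 CPM in microglia. As for Apoe (7723 and 7947 CPM), the lowest astrocyte value of either genotype belonged to replicate 3, and the highest to replicate 2 labelled KO (Apoe 18910 CPM). In that library 39.5% of counts fell on 8 abundant non-coding RNAs, against 26.2% to 32.0% in the other astrocyte libraries. The part of that share in the level of Apoe or Fabp5 was not tested.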
